A study of Oryza sativa with 12 samples.

Results

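The abscission zone (AZ) is the thin layer of the pedicel at which a rice grain comes off. The subject here is the transcriptome of the AZ in 2 cultivars, W517AZ vs. DZ129AZ: 6 of the 12 libraries of the series, 3 from W517 and 3 from DZ129, and 22977 of 35851 genes, namely those that reached 0.5 FPKM in 3 or more of the 6. W517 shatters easily, and DZ129 (Duzi 129) has lost seed shattering. Both are labelled wild type, and the pedicels were collected on day 10, counted from heading in the methods of the study and from flowering in the sample labels. The AZ was a piece of less than 2 mm cut from the pedicel, and the remaining pedicel, the nonabscission zone, entered only the estimate of the spread. What a replicate consisted of (single plants, plots or pools) is not given in the sources used here, so p-values measure only the spread between these libraries, which may be technical. The pieces are bulk tissue, in which fewer cells of a type and less RNA per cell cannot be told apart, and other differences in background between the cultivars cannot be told apart from the difference in shattering.

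Shedding needs a layer of small cells whose shared wall is loosened and then dissolved, while the neighbouring cells keep or thicken theirs. Polygalacturonases, pectin esterases, glucanases and expansins act on the wall polymers, and peroxidases and laccases couple monolignols into lignin, which stiffens the wall. In many plants, ethylene and abscisic acid promote abscission, and auxin delays it.

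The 6 AZ libraries held 18580586 to 19770869 reads on genes, as recovered from the FPKM (fragments scaled by gene length and by library size). Pearson's r across genes on log2(FPKM + 0.1), where genes are not independent replicates, was 0.990 to 0.992 within a cultivar and 0.743 to 0.750 between the cultivars. The SD between replicates was 0.0988 in W517AZ and 0.0855 in DZ129AZ for the median gene, on the same scale. The actin gene used by the study as internal control, LOC_Os01g71770, lay at 43.04, 45.7 and 47.1 FPKM in W517AZ and at 46.7, 46.6 and 43.6 FPKM in DZ129AZ, so the cultivars overlapped.

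Differentially expressed genes (DEGs) passed 0.05 for the Benjamini-Hochberg adjusted p in limma and changed more than 2-fold. Log2 fold changes are W517AZ minus DZ129AZ on log2(FPKM + 0.1), which understates the change of genes with low FPKM, and a value beside a gene with no unit is this log2 fold change, followed by its SE where ± is given. Of the genes tested, 2371 (10.3%) were higher in W517AZ and 3636 (15.8%) were lower, together 26.1%. Among the DEGs 39.5% were higher in W517AZ, against 49.2% after quantile normalization, which moved the median over all genes from -0.06 to 0.08 on the log2 scale. The median size of the change was 1.92 for the higher and 2.23 for the lower DEGs. A change beyond 8-fold was seen in 620 (26.1%) of the higher and in 1374 (37.8%) of the lower DEGs. In 1003 of the lower DEGs no W517AZ library had more than 3 reads, and in 428 of the higher DEGs no DZ129AZ library did.

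DEGs were more frequent among genes of low expression. Of the genes whose higher group mean lay between 1 and 5 FPKM, 42.3% were DEGs, compared with 14.1% of those between 20 and 100 FPKM and 21.0% of those above 100 FPKM. By the chromosome given in the locus identifier, the share of DEGs was lowest on chromosome 3 with 19.9% of 2956 genes and highest on chromosome 11 with 38.9% of 1292 genes, followed by chromosome 10 with 33.3% and chromosome 12 with 31.5%. On each of the 12 chromosomes more DEGs were lower than higher in W517AZ, and the higher share ranged from 35.6% to 44.0%.

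**Figure D1:**
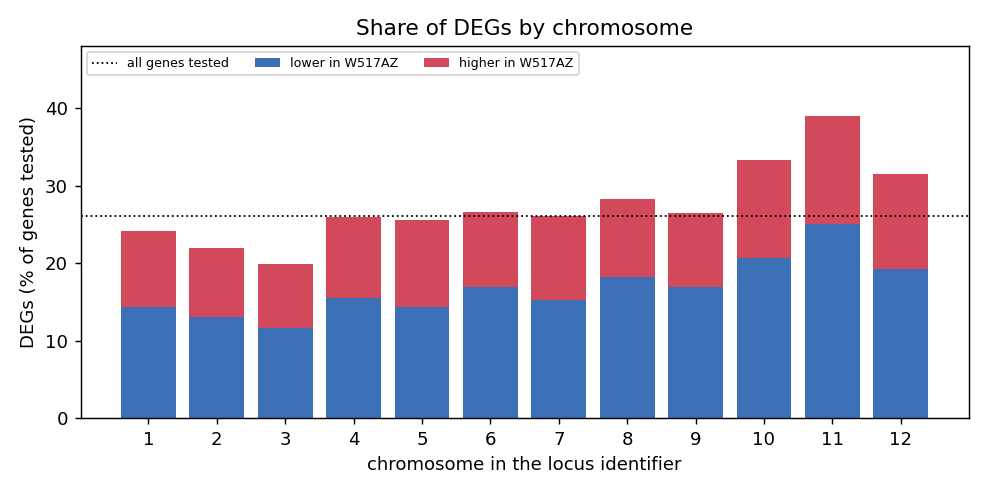
DEGs of W517AZ vs. DZ129AZ as a percentage of the genes tested on each chromosome, with the part lower in W517AZ (blue) below the part higher in W517AZ (red). The dotted line marks 26.1%, the share over all genes tested, and chromosome 11 stands highest at 38.9%.

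Product names were at hand for 1160 genes, the readable part of the study's list of AZ-specific DEGs of W517. That list had been selected on these libraries as genes differing in W517AZ vs. DZ129AZ and between the W517 tissues but not between the DZ129 tissues. That 826 of its 846 tested genes were DEGs here is therefore a consequence of the choice and not independent evidence, and whether the choice also favoured a direction was not tested. Of these DEGs 56.8% were higher in W517AZ, and of all other DEGs 36.7% were. By product name, 514 of the genes fell into 51 families in 13 groups. Statements on a family hold only for these listed genes. Members outside the list were not sought, apart from loci named in the product entries or by the study. In these families 337 genes were tested, of which 189 were higher, 140 were lower and 8 were not DEGs. The 177 members that were not tested were too low in at least 4 libraries, and a member that passed only through the cultivar where it is high had to differ. In every group, most or all untested members had the higher mean in W517AZ. This included 2 of 2 untested chloroplast genes, although no tested gene of that group was a DEG higher in W517AZ. The direction of untested members is therefore no trait of a single family. Groups that do not overlap were seen in 74.2% of all genes tested, and in all 337 tested family members. With a pseudocount of 1 in place of 0.1, 67 of the 238 DEGs chosen for naming were no longer DEGs, and none changed direction. Genes with near-identical neighbours, such as the prolamins, can share reads, and the treatment of such reads is not given in the sources used here.

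**Figure D2:**
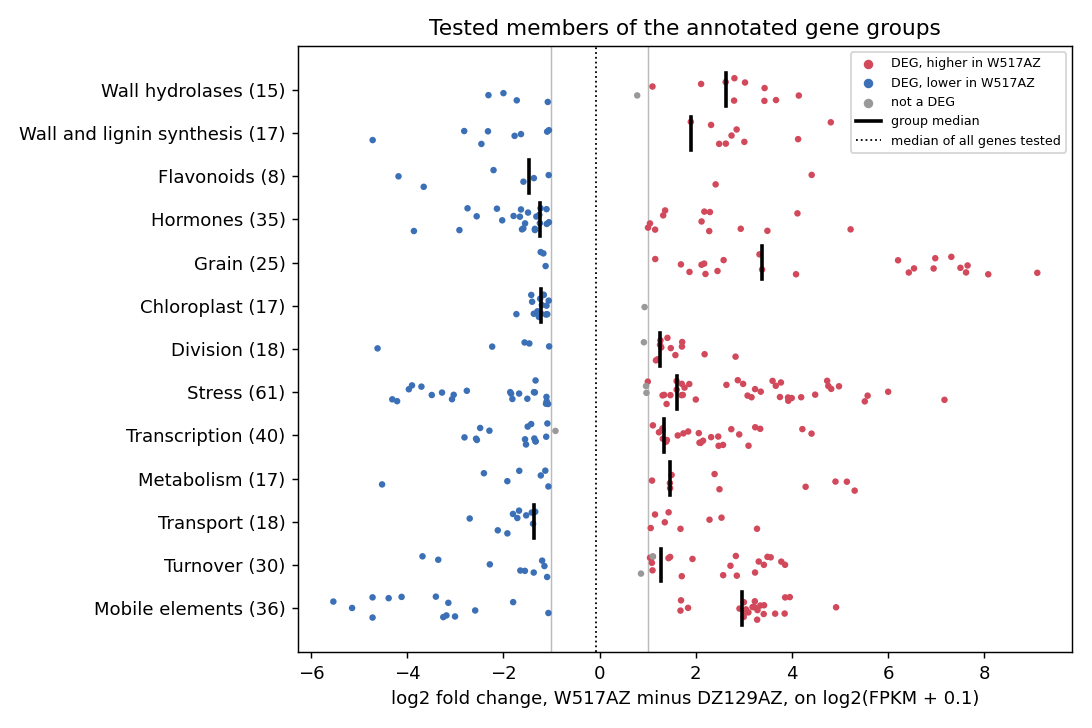
Log2 fold change of each tested family member (points, number in brackets), W517AZ minus DZ129AZ, with the group median (bar) and the median of all genes tested (dotted line, -0.06). Grain genes reach 9.10, 16 of the 17 chloroplast genes lie below -1, and most other groups hold DEGs of both directions.

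The listed genes for wall-loosening proteins and for inhibitors of wall enzymes were mostly higher in W517AZ, but at low levels, and the most abundant of them was lower. Of 24 listed genes 15 were tested, of which 10 were higher, 2 of them inhibitor genes, and 4 were lower. Across the list of 1160 genes, 56.8% of the DEGs were higher. The 9 untested genes all had the higher mean in W517AZ, as did most untested members of every group. Polygalacturonases, which cut the pectin backbone of the middle lamella, went both ways. LOC_Os02g03750 lay at 2.76, 2.73 and 2.27 FPKM in the W517AZ libraries and at 0.328, 0.4301 and 0.152 FPKM in the DZ129AZ libraries, a log2 fold change of 2.797 ± 0.36 (SE, adjusted p = 9.7e-06). LOC_Os07g10730 showed the reverse, with 0.468, 0.862 and 0.975 FPKM in W517AZ and 3.22, 4.93 and 4.18 FPKM in DZ129AZ (-2.31 ± 0.31, adjusted p = 1.5e-05). Neither pair of groups overlapped, as was so for 74.2% of all genes tested.

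Glycosyl hydrolases of family 17 include the beta-1,3-glucanases. LOC_Os01g71670 of this family was the most abundant of the 15 genes and lay at 7.45, 6.72 and 6.17 FPKM in W517AZ and 27.9, 33.2 and 21.9 FPKM in DZ129AZ, a log2 fold change of -1.997 ± 0.14 (SE, adjusted p = 1.6e-08). Its relative LOC_Os06g04080 was at 1.86, 1.796 and 1.81 FPKM in W517AZ and 0.121, 0.103 and 0.194 FPKM in DZ129AZ (3.02 ± 0.22). LOC_Os03g14210, a family 17 gene that is not in the list of 1160, was chosen by the study among the core DEGs of these libraries. It was at 1.19, 1.04 and 1.07 FPKM in W517AZ and 0.2296, 0.275 and 0.459 FPKM in DZ129AZ (1.55 ± 0.33, adjusted p = 0.00091), and was no DEG with a pseudocount of 0.5 or 1. The 2 rarer genes were thus higher in W517AZ and the abundant gene was lower.

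The other listed genes of wall loosening were rare in both cultivars. The expansin LOC_Os03g25990, of a family that slips wall polymers apart without cutting them, was at 1.302, 1.08 and 1.43 FPKM in W517AZ and 0.0417, 0 and 0.0417 FPKM in DZ129AZ (3.43 ± 0.28, adjusted p = 1.2e-07). The endoglucanase LOC_Os01g12070, which cuts beta-1,4-glucan chains, was at 1.095, 1.13 and 1.02 FPKM in W517AZ and 0.0215, 0.0915 and 0.108 FPKM in DZ129AZ (2.805 ± 0.35). Both tested family 16 genes, a family that holds the xyloglucan endotransglucosylases, were higher in W517AZ, LOC_Os03g01800 by 3.67 and LOC_Os09g23220 by 2.11 on the log2 scale. The alpha-galactosidase LOC_Os07g26900 was higher by 2.62. A locus in its product entry but outside the list, LOC_Os10g35110, was lower (-1.08). That locus was at 30.2 to 33.8 FPKM in W517AZ and 66.4 to 68.2 FPKM in DZ129AZ. The calls of LOC_Os01g12070, LOC_Os09g23220 and LOC_Os07g26900 were lost with a pseudocount of 1. The family 10 gene LOC_Os03g10440, a family of xylanases, was not a DEG at 0.613 to 0.992 FPKM in W517AZ and 0.349 to 0.418 FPKM in DZ129AZ. All of these genes except LOC_Os10g35110 stayed under 3 FPKM in every library.

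Pectin esterases and inhibitors of wall enzymes separated. Both pectin acetylesterase genes, whose enzymes remove acetyl groups from pectin, were lower in W517AZ: LOC_Os02g47400 at 1.08, 1.096 and 1.59 FPKM against 4.39, 4.48 and 4.05 FPKM in DZ129AZ (-1.72 ± 0.15, adjusted p = 3e-07), and LOC_Os01g66840 (-1.08), a call lost after quantile normalization and without W517AZ replicate 1. The pectinesterase LOC_Os02g18650, which removes methyl groups, was higher by 1.101 at no more than 0.7501 FPKM. That call was lost without DZ129AZ replicate 3 and without W517AZ replicate 2, and both this call and that of LOC_Os01g66840 were lost with a pseudocount of 0.5 or 1. The pectinesterase inhibitor gene LOC_Os02g33390 had no reads in any DZ129AZ library and 1.24, 1.32 and 0.555 FPKM in W517AZ, at least 3.699-fold higher against a floor of 3 reads per library. The xylanase inhibitor gene LOC_Os06g24990 likewise had none in DZ129AZ and 2.25, 1.02 and 1.999 FPKM in W517AZ, at least 6.36-fold higher.

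Genes of wall and lignin synthesis changed in both directions, with 9 of 17 tested genes higher and 8 lower out of 23 listed. CSLE1 (LOC_Os09g30120), a cellulose synthase-like gene of family E, fell among the 6 lowest of the tested listed genes with a specific product name (not expressed or hypothetical protein). Genes outside that set went lower, such as LOC_Os01g27490 (-10.07). It was at 34.7, 30.5 and 32.9 FPKM in DZ129AZ and at 0.977, 1.36 and 1.13 FPKM in W517AZ, 28.3-fold lower by the means, with a log2 fold change of -4.72 ± 0.12 (SE, adjusted p = 7.5e-13). The family 8 glycosyl transferases, a family that builds pectin and xylan among others, diverged. LOC_Os03g20120 was at 30.2, 28.3 and 28.2 FPKM in W517AZ and 5.33, 6.69 and 5.23 FPKM in DZ129AZ (2.32 ± 0.094), whereas LOC_Os06g51160 was at 0.844, 0.548 and 0.622 FPKM in W517AZ and 5.49, 4.74 and 5.57 FPKM in DZ129AZ (-2.81 ± 0.17). A xyloglucan fucosyltransferase, LOC_Os06g10910, was higher by 2.74 at under 1 FPKM, a call lost with a pseudocount of 1. Of the wall structural proteins, the glycine-rich protein gene LOC_Os05g02770 was at 23.9 to 26.8 FPKM in W517AZ and 50.3 to 55.7 FPKM in DZ129AZ (-1.05), and the gp1-type gene LOC_Os02g37109 was lower (-1.63).

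Of 5 tested peroxidase genes 4 were higher in W517AZ (1 with a pseudocount of 1) and 1 was lower, out of 7 listed. LOC_Os05g14260 was the most abundant, at 13.05, 13.6 and 11.5 FPKM in W517AZ and 0.655, 0.581 and 0.655 FPKM in DZ129AZ, 20.1-fold higher by the means (4.13 ± 0.23, adjusted p = 2.4e-09). LOC_Os06g32990, LOC_Os07g44590 and LOC_Os03g36560 were higher by 2.85, 2.63 and 2.49 and did not exceed 1.29 FPKM. LOC_Os07g44600, whose number follows that of LOC_Os07g44590, was lower, at 0, 0.876 and 0.286 FPKM in W517AZ and 1.28, 1.81 and 2.27 FPKM in DZ129AZ. Apart from LOC_Os05g14260, the peroxidases of this list were therefore rare transcripts in both cultivars.

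Both laccase genes at hand were higher in W517AZ. The study had selected both as DEGs on these libraries, so this is not independent evidence, and other laccase loci were not examined. The candidate gene LOC_Os01g63180 (LAC7), which is not in the list of 1160, was at 5.55, 4.73 and 4.75 FPKM in W517AZ and 1.54, 1.42 and 1.06 FPKM in DZ129AZ (1.84 ± 0.12, adjusted p = 1.3e-08). LOC_Os01g62480, which is in the list, was at 3.34, 4.14 and 4.58 FPKM in W517AZ and 1.22, 1.04 and 0.7799 FPKM in DZ129AZ (1.898 ± 0.24, adjusted p = 1e-05), close to LAC7 in level and change. Earlier in the pathway, the cinnamoyl-CoA reductase gene LOC_Os01g18120, whose enzyme family commits phenylpropanoids to monolignols, was lower in W517AZ at 0.645, 0.462 and 0.174 FPKM against 2.41, 1.91 and 2.72 FPKM (-2.32 ± 0.31). Os4bglu18 (LOC_Os04g43410), annotated as a monolignol beta-glucosidase homologue, was lower (-1.09), a call lost after quantile normalization and with a pseudocount of 0.5 or 1. The 3 tested O-methyltransferases, counted in this group by product name alone, split. That name does not assign them to lignin. LOC_Os04g09604 was at 4.61, 4.496 and 4.73 FPKM in W517AZ against 14.9, 16.04 and 16.9 FPKM in DZ129AZ. LOC_Os06g13280 (at least 18.2-fold) and ASMT2 (LOC_Os10g02880, 3.01) were higher in W517AZ.

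**Figure D3:**
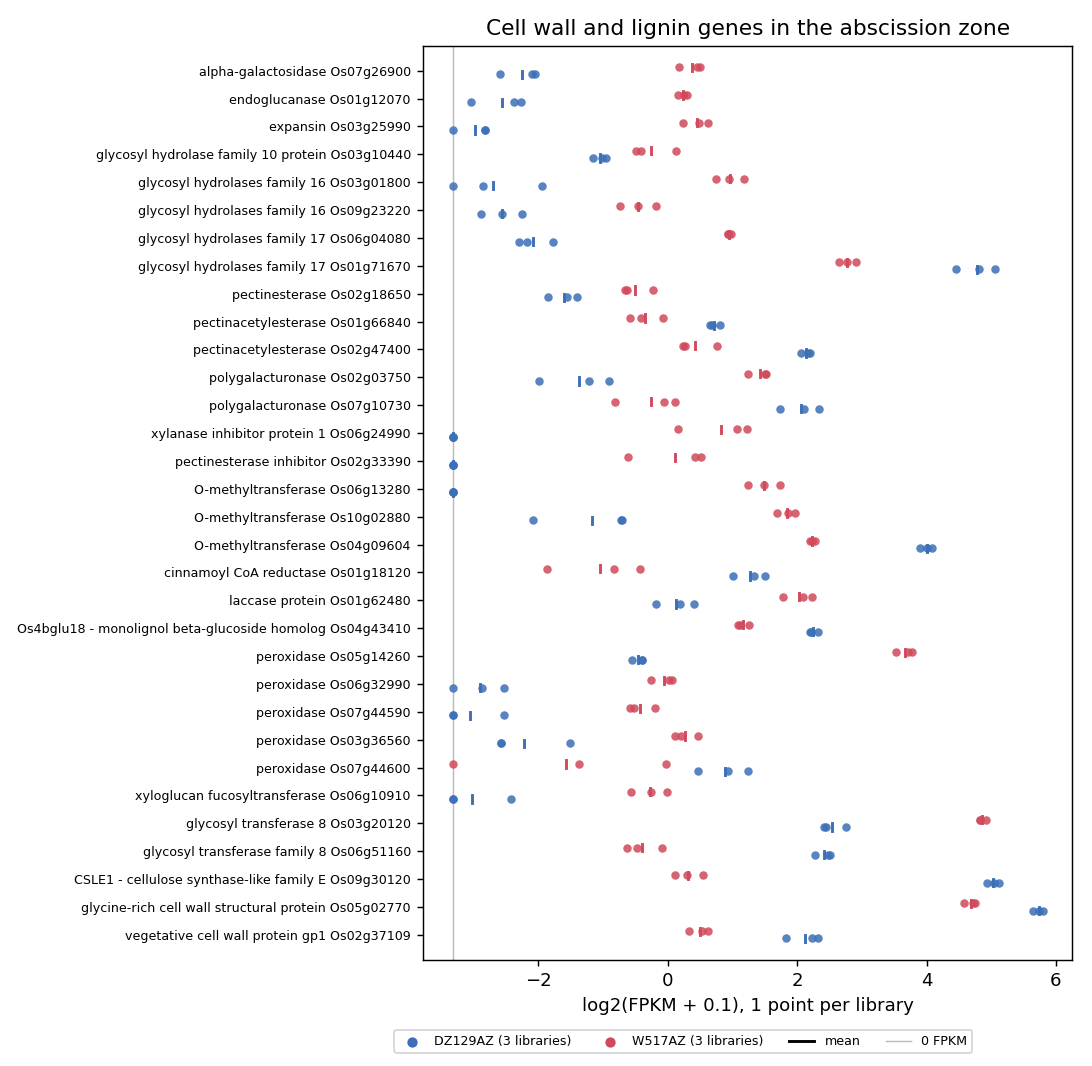
Level of each tested wall and lignin gene on log2(FPKM + 0.1), with 1 point per library, DZ129AZ in blue and W517AZ in red, a tick at the mean and a grey line at 0 FPKM. The points of the cultivars do not overlap for any of the 32 genes, which had been selected as DEGs, nor for 74.2% of all genes tested. CSLE1 and the family 17 gene LOC_Os01g71670 are among those far to the right in DZ129AZ.

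The listed flavonoid genes were mostly lower in W517AZ, with 6 of 8 tested genes lower and 2 higher out of 10 listed. The dihydroflavonol-4-reductases, which make the leucoanthocyanidin precursors of anthocyanins and tannins, were both lower. LOC_Os09g31506 was at 0.0687, 0.136 and 0.234 FPKM in W517AZ and 3.96, 4.25 and 4.36 FPKM in DZ129AZ, 28.7-fold lower by the means (-4.18 ± 0.24, adjusted p = 2.4e-09). LOC_Os02g56690 was at 0.0494, 0.294 and 0.144 FPKM in W517AZ and 2.897, 3.49 and 2.57 FPKM in DZ129AZ (-3.65 ± 0.28). The next enzyme, leucoanthocyanidin dioxygenase (LOC_Os02g17940), was at 2.17, 2.07 and 2.08 FPKM and 10.3, 9.51 and 10.4 FPKM in the same order (-2.203 ± 0.086). The listed genes of both steps were thus lower in all 3 W517AZ libraries. An isoflavone reductase gene (LOC_Os10g01044) was lower (-1.36), a flavonoid glucosyltransferase (LOC_Os05g42070) (-1.58) and a flavonol synthase/flavanone 3-hydroxylase (LOC_Os06g08032) (-1.06), of which the last was no DEG without any 1 of 3 libraries (DZ129AZ replicate 1, W517AZ replicates 1 and 2). The flavonol sulfotransferase LOC_Os08g20130 was at 3.76, 3.49 and 3.96 FPKM in W517AZ and 0.0385, 0.205 and 0.0385 FPKM in DZ129AZ (4.41 ± 0.3), and the anthocyanin 3-O-beta-glucosyltransferase LOC_Os03g59350 was higher by 2.41. The calls of LOC_Os05g42070, LOC_Os06g08032 and LOC_Os03g59350 were lost with a pseudocount of 1.

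The 47 hormone genes included 35 that were tested, of which 13 were higher and 22 were lower in W517AZ, and the families differed in their make-up. Auxin genes were split, 4 higher and 4 lower, and the higher ones were 2 with a pseudocount of 1. A pair of genes shared the annotation auxin-induced protein 5NG4, a family of membrane transporters. LOC_Os05g33900 was at 33.02, 33.8 and 35.1 FPKM in W517AZ and 2.84, 3.19 and 2.78 FPKM in DZ129AZ (3.49 ± 0.11, adjusted p = 3.8e-12). LOC_Os02g01326 was at 10.3, 9.41 and 12.02 FPKM in W517AZ and 77.3, 82.4 and 79.8 FPKM in DZ129AZ (-2.91 ± 0.089, adjusted p = 4.3e-12). The 2 genes thus moved in opposite directions, and the more abundant was lower.

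Among the regulators of the auxin response, which are repressors (Aux/IAA) and DNA-binding factors (ARF), auxin response factor 7 (LOC_Os02g35140) was at 12.3, 14.7 and 14.8 FPKM in W517AZ and 6.47, 6.78 and 6.73 FPKM in DZ129AZ (1.05). OsIAA11 (LOC_Os03g43400) was higher by 2.94 from a level near 0. OsIAA9 (LOC_Os02g56120) was higher by 1.16, a call lost without W517AZ replicate 1, and OsIAA4 (LOC_Os01g18360) was lower (-1.097), a call lost without DZ129AZ replicate 1 and after quantile normalization. OsSAUR29 (LOC_Os06g50040), of a family of early auxin-responsive genes, was at 3.57 to 4.39 FPKM against 9.13 to 9.62 FPKM in DZ129AZ (-1.25). The IAA-amino acid hydrolase gene LOC_Os07g14610, whose enzyme family releases auxin from its conjugates, was at 11.5, 12.1 and 11.4 FPKM in W517AZ and 31.6, 27.1 and 30.7 FPKM in DZ129AZ (-1.34 ± 0.0805).

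Cytokinin genes were also split, 4 higher and 5 lower out of 9 tested and 13 listed, and the lower ones were 3 with a pseudocount of 1. Of the response regulators, OsRR2 (LOC_Os02g35180), a type-A regulator of the kind that dampens the cytokinin response, was at 8.59, 8.49 and 8.83 FPKM in W517AZ and 25.96, 25.8 and 26.5 FPKM in DZ129AZ (-1.58 ± 0.073, adjusted p = 2.9e-10). The two-component response regulator LOC_Os04g28130 was at 4.44, 4.55 and 4.13 FPKM in W517AZ, and DZ129AZ gave 0.0724, 0 and 0 FPKM (5.22 ± 0.3). A histidine kinase gene (LOC_Os06g44410), of the receptor family, was lower (-1.63). Glucosyltransferases, which store or inactivate cytokinin as glucosides, differed within the family: LOC_Os07g13800 was at 0.0358, 0 and 0.0694 FPKM against 1.72, 1.68 and 2.06 FPKM in DZ129AZ, and LOC_Os02g11700 had no reads in DZ129AZ and was at least 17.99-fold higher in W517AZ. The near neighbours LOC_Os02g51910 and LOC_Os02g51930, a pair picked after its values were seen, carry the same product name and went in opposite directions (-1.55 and 1.36).

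The tested genes that were grouped under gibberellin and ethylene by product name alone were lower in W517AZ with 1 exception. All 4 tested gibberellin genes of 6 listed were lower (1 with a pseudocount of 1), and both untested genes had the higher mean in W517AZ. Gibberellin 2-beta-dioxygenase 1 (LOC_Os05g11810), of a family that inactivates gibberellin, was at 4.84, 4.43 and 3.91 FPKM in W517AZ and 14.02, 14.1 and 13.9 FPKM in DZ129AZ (-1.65 ± 0.15, adjusted p = 4.1e-07). The genes annotated as gibberellin receptor GID1L2, LOC_Os09g28230 and LOC_Os08g37050, were lower (-2.13 and -1.79) at no more than 1.58 FPKM. Gibberellin 2-beta-dioxygenase 7 (LOC_Os02g41954) was lower (-1.05), and leaving out any 1 of 3 libraries (DZ129AZ replicate 3, W517AZ replicates 2 and 3) ended its call.

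Of 6 tested ethylene genes out of 8 listed, 5 were lower in W517AZ, of which 3 stayed DEGs after quantile normalization, and 3 were lower with a pseudocount of 1. The 1-aminocyclopropane-1-carboxylate (ACC) oxidase gene LOC_Os05g05670, of the enzyme that makes ethylene, was at 3.28, 2.02 and 2.95 FPKM in W517AZ and 16.98, 15.1 and 16.98 FPKM in DZ129AZ, 5.94-fold lower by the means (-2.55 ± 0.26, adjusted p = 9.6e-07). The ethylene-insensitive 3 gene LOC_Os03g20790, of the factors that switch on ethylene-responsive genes, was at 6.21, 5.39 and 4.89 FPKM in W517AZ and 13.8, 13.3 and 14.2 FPKM in DZ129AZ (-1.31 ± 0.088). An ethylene-responsive transcription factor (LOC_Os03g09170) was lower (-1.101). Of the genes annotated as ACC oxidase homolog 1, LOC_Os03g64280 and LOC_Os08g30150 were lower (-1.34 and -1.23), while LOC_Os01g35230 was higher, at 2.09, 1.39 and 2.03 FPKM against 0.382, 0.554 and 0.139 FPKM in DZ129AZ. The listed genes LOC_Os05g05670 and LOC_Os03g20790 were thus both lower in W517AZ. Other genes for this enzyme and this factor were not sought outside the list.

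Of 5 tested genes of jasmonate and abscisic acid (ABA), out of 7 listed, 4 were higher and 1 was lower, and all 3 tested brassinosteroid and peptide receptor genes were lower. Both tested protein phosphatase 2C genes, a family that includes the repressors of ABA signalling, were higher in W517AZ: LOC_Os02g55560 at 58.97, 56.6 and 54.5 FPKM against 14.1, 12.6 and 12.2 FPKM in DZ129AZ (2.12 ± 0.082, adjusted p = 4.3e-11), and LOC_Os06g48300 at 16.4, 15.6 and 14.3 FPKM against 5.61, 6.01 and 6.74 FPKM (1.32 ± 0.12). The kinase gene SAPK4 (LOC_Os05g35760), of the family that these phosphatases act on, was higher by 2.295 at no more than 1.8 FPKM. Its call was lost with a pseudocount of 1. A 12-oxophytodienoate reductase gene (LOC_Os01g27230), of an enzyme family in jasmonate synthesis, was at 5.28, 5.19 and 5.18 FPKM in W517AZ and 1.05, 1.04 and 0.903 FPKM in DZ129AZ (2.28 ± 0.099), and a jasmonate-induced protein (LOC_Os04g22900) was lower (-2.02). The BRI1-associated receptor kinase gene LOC_Os06g16330, a co-receptor of brassinosteroid, was at 6.81, 7.07 and 7.503 FPKM in W517AZ and 19.8, 20.5 and 20.1 FPKM in DZ129AZ (-1.49 ± 0.094). The phytosulfokine receptor genes LOC_Os02g05910 and LOC_Os02g05980 were lower (-1.61 and -2.74), and the call of LOC_Os02g05910 was lost with a pseudocount of 1. LOC_Os01g63260, a gene outside the list, is annotated by the study as a steroid dehydrogenase and was chosen there among core DEGs of these libraries. It was at 2.09, 1.81 and 2.91 FPKM in W517AZ and 6.33, 7.403 and 6.46 FPKM in DZ129AZ (-1.55 ± 0.23, adjusted p = 3.8e-05).

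**Figure D4:**
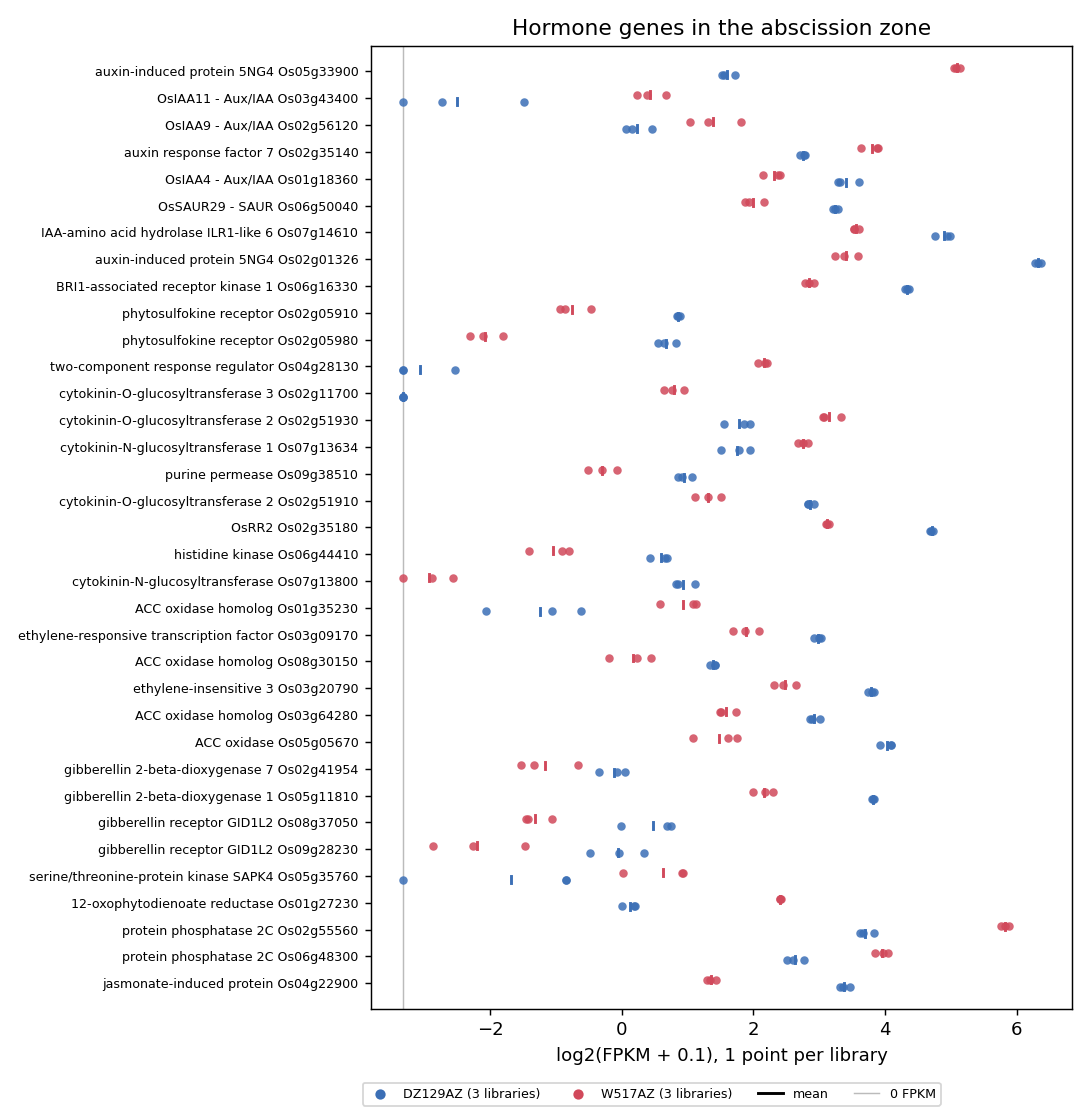
Level of each of the 35 tested hormone genes on log2(FPKM + 0.1), with 1 point per library, DZ129AZ in blue and W517AZ in red, a tick at the mean and a grey line at 0 FPKM. The cultivars do not overlap for any of these genes, which had been selected as DEGs, nor for 74.2% of all genes tested. The 5NG4 genes lie in opposite orders, and 5 of the 6 ethylene genes and all 4 gibberellin genes have their W517AZ points to the left.

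The photosynthesis genes of the list, which had been selected as DEGs, were lower in W517AZ, as were 15.8% of all genes tested. All 11 listed photosystem and light-harvesting genes were tested and were lower, between -1.09 and -1.73 on the log2 scale with a median of -1.22. The count was 11 after median-ratio scaling and quantile normalization, and 10 without DZ129AZ replicate 3 or W517AZ replicate 3. The most abundant, the photosystem II 10 kDa polypeptide gene LOC_Os08g10020, was at 412, 379 and 386 FPKM in W517AZ and 886, 923 and 959.8 FPKM in DZ129AZ (-1.23 ± 0.039, adjusted p = 6.3e-12). A chlorophyll a-b binding protein gene (LOC_Os01g64960), of the light-harvesting antenna, was at 47.6, 39.3 and 43 FPKM and 110.2, 117 and 119.8 FPKM in the same order (-1.42 ± 0.055). A photosystem I reaction centre subunit (LOC_Os09g30340) was lower (-1.401), and a thylakoid lumenal protein (LOC_Os01g05080) (-1.73). The summed level of the 11 genes was 852 to 922 FPKM in W517AZ and 1947 to 2159 FPKM in DZ129AZ, 2.35-fold lower. Of 6 tested genes of pigments and plastid metabolism, out of 8 listed, 5 were lower and 1 was no DEG, and the summed level of the 8 was 109 to 115 FPKM in W517AZ and 247 to 266 FPKM in DZ129AZ. The exception was 1 of 2 genes for glyceraldehyde-3-phosphate dehydrogenase, an enzyme of glycolysis and of carbon fixation. LOC_Os06g45590 was at 3.72, 3.84 and 4.03 FPKM in W517AZ and 1.96, 1.72 and 2.25 FPKM in DZ129AZ (0.94 ± 0.15, adjusted p = 7.3e-05), short of the 2-fold threshold, which it passed as higher after quantile normalization and without DZ129AZ replicate 3. The other, LOC_Os04g38600, was at 67.4, 60.9 and 62.9 FPKM in W517AZ and 146, 156 and 156 FPKM in DZ129AZ (-1.26 ± 0.047), so the abundant gene was lower and the rare one was not. The remaining genes were magnesium-chelatase (LOC_Os03g20700, chlorophyll synthesis, -1.101), DVR (LOC_Os03g22780, -1.06), violaxanthin de-epoxidase (LOC_Os04g31040, the xanthophyll cycle, -1.29) and PTAC16 (LOC_Os05g22614, of the plastid chromosome, -1.37). DVR was no DEG after quantile normalization, with a pseudocount of 0.5 or 1, or without W517AZ replicate 3.

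Transcripts of the storage protein and starch lists were higher in W517AZ. All 14 tested prolamin and glutelin genes, which encode the storage proteins of the endosperm, were higher, by a median of 6.96 on the log2 scale. They hold the 6 highest values of the tested listed genes with a specific product name. PROLM22 (LOC_Os07g11920) had the highest, at 119, 115 and 107 FPKM in W517AZ and 0.2401, 0 and 0.1601 FPKM in DZ129AZ (9.101 ± 0.41, adjusted p = 2.1e-10). PROLM20 (LOC_Os07g11910) was at 77.6, 91 and 67.1 FPKM in W517AZ and 0.1596, 0.0849 and 0.399 FPKM in DZ129AZ (8.08 ± 0.31, adjusted p = 4e-11). The summed level of all 15 listed genes was 447 to 491 FPKM in W517AZ and 1.93 to 3.81 FPKM in DZ129AZ, where 3 to 9 of the 15 were at 0 in a library. Loci outside the list were read in both cultivars. GLUB5 (LOC_Os02g16820), a glutelin gene, was at 667, 610.4 and 637 FPKM in W517AZ and 132, 124 and 111 FPKM in DZ129AZ, 5.22-fold higher by the means (2.39 ± 0.068, adjusted p = 2.2e-12). LOC_Os12g16890, the locus given in the entry of the prolamin PROLM23, was at 3598, 4399 and 3088 FPKM in W517AZ and 393, 379 and 349 FPKM in DZ129AZ, 9.88-fold higher (3.29 ± 0.11). The listed prolamins were thus near 0 in DZ129AZ while GLUB5 stayed above 100 FPKM in all of its libraries.

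All 6 tested genes of the starch list (8 listed), which had also been selected as DEGs, were higher in W517AZ. The list and its sum also hold a pyruvate, phosphate dikinase and a beta-amylase, which do not build starch. Of the genes annotated as large subunit of ADP-glucose pyrophosphorylase, the committed step of starch synthesis, LOC_Os01g44220 was at 182, 182 and 179 FPKM in W517AZ and 19.98, 17.6 and 16.5 FPKM in DZ129AZ (3.33 ± 0.086, adjusted p = 9.8e-13). LOC_Os08g25734, with the same annotation, was at 282, 269.6 and 279 FPKM and 63.5, 62.2 and 65.2 FPKM in the same order (2.12 ± 0.046). The starch branching enzyme gene LOC_Os06g51084 was at 339, 346 and 348 FPKM in W517AZ and 65.8, 61.95 and 60.9 FPKM in DZ129AZ (2.45 ± 0.041). The alpha-glucan phosphorylase gene LOC_Os03g55090 was higher by 1.87, and a pyruvate, phosphate dikinase gene (LOC_Os05g33570) by 1.69. A beta-amylase gene (LOC_Os07g47120), of starch breakdown, was higher by 3.38 at no more than 1.48 FPKM. The summed level of the 8 genes was 1398 to 1406 FPKM in W517AZ and 308 to 325 FPKM in DZ129AZ, 4.40-fold higher. The part of grain transcripts in the other differences between the cultivars was not tested. Late embryogenesis abundant and AWPM-19 genes, which protect drying seeds, did not follow: 2 of 5 were higher (LOC_Os08g34990, 2.18, and LOC_Os05g33220, 2.203) and 3 were lower (LOC_Os01g50440, -1.22, LOC_Os05g08920, -1.12, and LOC_Os09g28860, -1.17), of which the last 2 were no DEGs after quantile normalization, nor without W517AZ replicate 2 (LOC_Os05g08920) and DZ129AZ replicate 2 (LOC_Os09g28860). A pseudocount of 1 left 1 of these genes higher and 1 lower.

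**Figure D5:**
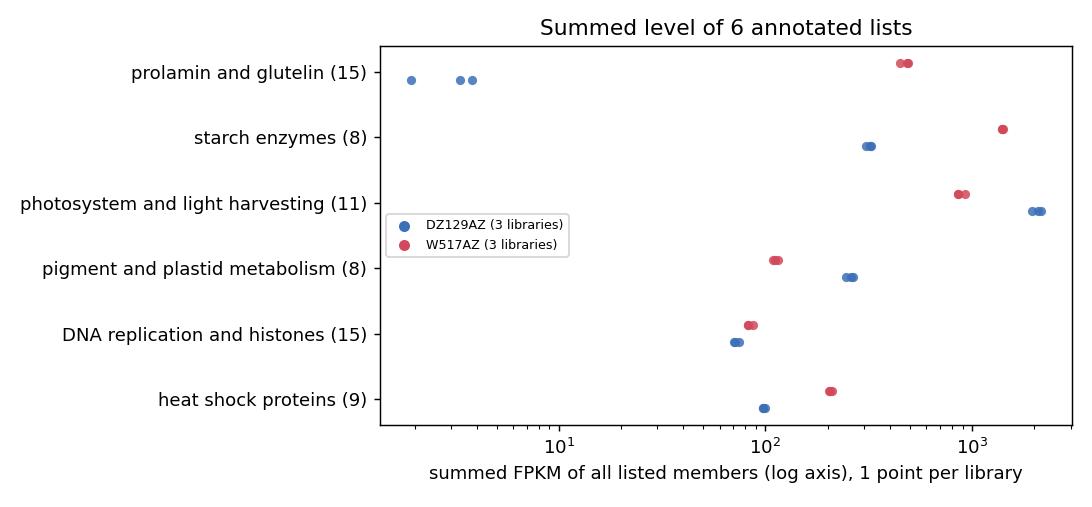
Summed FPKM of all listed members of 6 lists on a log axis, with 1 point per library, DZ129AZ in blue and W517AZ in red, and the number of members in brackets. The prolamin and glutelin sum is 447 to 491 FPKM in W517AZ and under 4 FPKM in DZ129AZ, and both chloroplast lists lie lower in W517AZ.

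Genes of DNA replication, chromatin and tubulin were mostly higher in W517AZ, with 10 of 14 tested genes higher and 3 lower out of 15 listed. Across the list of 1160 genes, 56.8% of the DEGs were higher. POLA3 (LOC_Os07g22400), a subunit of the polymerase alpha complex that primes new strands, was at 4.33, 3.93 and 3.63 FPKM in W517AZ and 0.447, 0.4504 and 0.517 FPKM in DZ129AZ (2.83 ± 0.18, adjusted p = 8.9e-09). The core histone genes LOC_Os03g06670 and LOC_Os01g31800 were higher by 2.18 and 1.72, and both calls were lost with a pseudocount of 1. Among the lower genes, MCM9 (LOC_Os06g11500), of the minichromosome maintenance helicases, was at 0.423, 0.532 and 0.433 FPKM in W517AZ and 13.9, 13.8 and 13.1 FPKM in DZ129AZ, 29.5-fold lower by the means (-4.61 ± 0.13, adjusted p = 2.3e-12). The core histone gene LOC_Os03g02780 was at 5.39, 5.55 and 3.98 FPKM in W517AZ and 24.8, 22.6 and 23.02 FPKM in DZ129AZ (-2.23 ± 0.15), and a DNA ligase gene (LOC_Os05g51060) was lower (-1.56). In sum, the 15 genes were at 82.5 to 87.1 FPKM in W517AZ and 70.2 to 74.2 FPKM in DZ129AZ. Of 4 tested cell cycle genes out of 11 listed, cyclin-dependent kinase B2-1 (LOC_Os08g40170, 1.26) and the cyclin LOC_Os01g59120 (1.71) were higher, and a cell division inhibitor (LOC_Os02g58790, -1.46) and an mki67 protein (LOC_Os06g35574, -1.05) were lower. The last was no DEG after median-ratio scaling, after quantile normalization or without any 1 of 3 libraries (DZ129AZ replicates 1 and 2, W517AZ replicate 3). Both higher cell cycle genes and the mki67 gene lost their calls with a pseudocount of 0.5 or 1.

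Heat shock genes went both ways, 5 of 9 higher and 4 lower, and the higher ones were 3 with a pseudocount of 1. BIP1 (LOC_Os02g02410), the chaperone of the endoplasmic reticulum, was the most abundant, at 182, 182 and 187 FPKM in W517AZ and 60.4, 62.6 and 58.1 FPKM in DZ129AZ (1.602 ± 0.033, adjusted p = 1.8e-13). Heat shock protein 101 (LOC_Os05g44340) and the co-chaperone STI (LOC_Os04g45480) were higher by 1.704 and 2.001. Small heat shock proteins, which hold unfolded proteins, went the other way where they were abundant: HSP18.0 (LOC_Os01g08860) was at 1.43, 1.36 and 1.27 FPKM in W517AZ and 21.3, 21.2 and 22.1 FPKM in DZ129AZ (-3.898 ± 0.19), and HSP16.9C (LOC_Os01g04360) was lower (-1.86). The hsp20 gene LOC_Os03g45340 was higher by 1.73, and an hsp90 gene (LOC_Os09g36420) was lower (-1.81). Both of these calls were lost with a pseudocount of 1.

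Thionins and defensins, small antimicrobial peptides, were higher in W517AZ in all 7 tested genes of 11 listed. These genes had been selected as DEGs on these libraries, so the count is not independent evidence. The 4 untested had the higher mean in W517AZ, as did most untested members of every group. DEF3 (LOC_Os02g07600) was at 9.38, 9.697 and 10.7 FPKM in W517AZ and 0.9802, 0.209 and 0.392 FPKM in DZ129AZ (4.19 ± 0.44, adjusted p = 1.5e-06). THION18 (LOC_Os01g41140) and DEF1 (LOC_Os01g70680) were higher by 3.16 and 3.35. THION15 (LOC_Os06g32600), THION9 (LOC_Os06g32240), THION6 (LOC_Os06g32020) and DEFL78 (LOC_Os02g07440) had no reads in DZ129AZ and were at least 15.5-, 9.26-, 6.38- and 3.35-fold higher. These 4 passed the filter only through W517AZ and could only come out higher. With these 4 at their bounds the median of the 7 genes was 3.21 in place of 3.92 on the log2 scale.

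Resistance genes of the NBS-LRR type, the intracellular immune receptors, included genes read in 1 cultivar almost alone. Of 13 tested out of 18 listed, 7 were higher in W517AZ and 6 lower, of which 3 stayed lower after quantile normalization. A pseudocount of 1 gave 4 higher and 3 lower. LOC_Os06g49380 was at 0.113, 0.173 and 0.186 FPKM in W517AZ and 5.201, 4.88 and 4.81 FPKM in DZ129AZ (-4.31 ± 0.18, adjusted p = 1.1e-10), and LOC_Os02g16270 (xa1) and LOC_Os10g03570 (RGH1A) were lower (-3.702 and -3.49). LOC_Os04g11780 (LR10) and LOC_Os08g16450 had no reads in DZ129AZ and were at least 33.3- and 5.58-fold higher in W517AZ. LOC_Os01g72680 (RPS2) was higher by 3.92.

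Of the genes annotated as OsWAK, after the wall-associated kinases that bind pectin, 2 of 6 tested were higher in W517AZ and 4 lower out of 10 listed. The lower ones were 1 with a pseudocount of 1. By annotation, only OsWAK60 of these 6 is a receptor-like protein kinase. OsWAK40 and OsWAK115 are receptor-like proteins, and OsWAK59, OsWAK70 and OsWAK77 are cytoplasmic kinases. OsWAK40 (LOC_Os04g29790) was at 5.105, 6.59 and 7.44 FPKM in W517AZ without a read in DZ129AZ, at least 32.2-fold higher, and OsWAK70 (LOC_Os07g31210) was at least 19.4-fold higher. OsWAK59 (LOC_Os04g30330) had reads in DZ129AZ only, where it was at 0.749, 0.724 and 0.681 FPKM, and was at least 6.85-fold lower in W517AZ. OsWAK60 (LOC_Os04g30240) was at 5.15, 6.18 and 5.92 FPKM in W517AZ and 12.3, 12.2 and 12.8 FPKM in DZ129AZ (-1.103 ± 0.064). OsWAK115 (LOC_Os08g27810) and OsWAK77 (LOC_Os08g27780) were lower (-1.67 and -1.11), and OsWAK77 was no DEG without any 1 of 3 libraries (DZ129AZ replicate 3, W517AZ replicates 2 and 3). The DUF26 kinases, whose outer part carries cysteine-rich repeats, gave 3 higher and 1 lower of 5. LOC_Os07g35260, LOC_Os07g35280 and LOC_Os07g35700, near one another on chromosome 7, were higher by 1.71, 1.604 and 2.64. The call of LOC_Os07g35280 was lost with a pseudocount of 1. LOC_Os04g12080 was lower (-3.96), and LOC_Os05g03920 was no DEG at 0.97.

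Among the other receptor-like kinases 13 of 21 tested genes were higher and 7 lower out of 30 listed. In the list of 1160 genes as a whole, 56.8% of the DEGs were higher. The receptor kinase LOC_Os02g40190 was at 15.7, 17.8 and 16.4 FPKM in W517AZ and 0.0551, 0 and 0 FPKM in DZ129AZ (7.17 ± 0.25, adjusted p = 1.8e-11), the largest difference of the receptor genes. LOC_Os05g16420, an SHR5-type kinase, and LOC_Os02g13420, an EXS-type kinase, were higher by 5.57 and 5.52. The 3 lowest carry close numbers on chromosome 1: LOC_Os01g02800 was at 0.0928, 0.184 and 0.225 FPKM in W517AZ and 4.98, 5.06 and 4.196 FPKM in DZ129AZ (-4.21 ± 0.18), and LOC_Os01g02350 and LOC_Os01g02760 were lower (-3.27 and -3.07).

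Transcription factor genes were more often higher than lower, 25 and 14 of 40 tested out of 55 listed. Over all genes tested, 10.3% were higher and 15.8% lower, and of all DEGs in the list of 1160 genes 56.8% were higher. Whether this class departs from that share was not tested. With a pseudocount of 1 in place of 0.1, the count of higher genes was 0 in place of 3 for B3, 2 in place of 4 for C2H2 zinc finger and 4 in place of 10 for a mixed class of bZIP, AP2, NAC, homeobox and other factors. Of the 9 tested MYB genes 6 were higher. LOC_Os01g65370 was the most abundant, at 21.8, 21.1 and 22.1 FPKM in W517AZ and 47.5, 60.7 and 56.3 FPKM in DZ129AZ (-1.33 ± 0.068). LOC_Os04g51800 and LOC_Os02g46940 were also lower (-2.57 and -1.36), and the call of LOC_Os02g46940 was lost with a pseudocount of 1. LOC_Os06g07650, LOC_Os01g43180 and LOC_Os05g37060 were higher by 3.34, 2.904 and 2.15, none above 3.47 FPKM. Both tested bHLH genes were higher: LOC_Os01g70310, annotated as inducer of CBF expression 2, a factor of the cold response, was at 27.8, 26.2 and 27.4 FPKM against 4.48, 5.0002 and 4.92 FPKM in DZ129AZ (2.48 ± 0.11, adjusted p = 2.3e-10), and LOC_Os02g34320 was higher by 4.22.

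Of 5 tested B3 genes, of the family that holds the ARF factors, 3 were higher and 2 lower (1 with a pseudocount of 0.5 or 1). LOC_Os01g13300 was at 1.87, 1.85 and 1.72 FPKM in W517AZ and 10.9, 10.9 and 9.996 FPKM in DZ129AZ (-2.48 ± 0.103, adjusted p = 9.1e-11), LOC_Os02g45850 was lower (-1.53), and LOC_Os03g42430, LOC_Os01g52514 and LOC_Os04g58010 were higher by 2.47, 2.103 and 2.08. Of 7 C2H2 zinc finger genes, LOC_Os05g38600 was at 7.01, 6.55 and 4.48 FPKM in W517AZ and 0.482, 0 and 0.289 FPKM in DZ129AZ (4.41 ± 0.56). ZOS9-17 (LOC_Os09g38340), SL1 (LOC_Os01g03840) and ZOS5-08 (LOC_Os05g37190) were higher by 3.097, 2.32 and 1.4. ZOS1-03 (LOC_Os01g04120), ZOS6-01 (LOC_Os06g07020) and ZOS2-03 (LOC_Os02g05610) were lower (-1.49, -1.42 and -1.33). The C2H2 genes that were lower lay between 4.14 and 5.75 FPKM in DZ129AZ, and those that were higher lay under 1 FPKM there.

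In the mixed class of 17 tested factors out of 24 listed, 10 were higher and 6 lower. The AP2 domain gene LOC_Os01g21120, of the family of ethylene response factors, was the most abundant, at 30.4, 29.2 and 29.03 FPKM in W517AZ and 80.6, 86.9 and 92.5 FPKM in DZ129AZ (-1.55 ± 0.061, adjusted p = 5.8e-11). LOC_Os05g37170, annotated only as transcription factor, was at 2.17, 2.23 and 2.14 FPKM and 14.02, 11.96 and 13.8 FPKM in the same order (-2.55 ± 0.13). The bZIP gene LOC_Os02g58670 was at 1.63, 1.91 and 1.58 FPKM in W517AZ and 12.2, 12.6 and 12.8 FPKM in DZ129AZ (-2.81 ± 0.11), and the NAC-type gene LOC_Os02g34970 (no apical meristem) was lower (-2.29). The bZIP genes LOC_Os04g10260 and LOC_Os06g42690 and the transcription factor LOC_Os04g57530 were higher by 3.24, 2.74 and 2.57. LOC_Os04g57530 lay at 1.03, 0.944 and 0.848 FPKM in W517AZ and 0.115, 0.0812 and 0.0382 FPKM in DZ129AZ, and was no DEG with a pseudocount of 1.

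Genes of nitrogen assimilation ran against each other. Ferredoxin-nitrite reductase (LOC_Os01g25484), which turns nitrite to ammonium in the plastid, was at 6.67, 6.91 and 6.75 FPKM in W517AZ and 43.5, 45.7 and 44.5 FPKM in DZ129AZ (-2.699 ± 0.036, adjusted p = 1.1e-14). Nitrate reductase (LOC_Os02g53130), the step before it, was at 16.1, 14.9 and 15.7 FPKM and 5.34, 6.21 and 6.53 FPKM in the same order (1.36 ± 0.084). A high affinity nitrate transporter (LOC_Os04g40410) was at 4.65, 4.35 and 4.83 FPKM in W517AZ and 15.2, 21.4 and 16.8 FPKM in DZ129AZ (-1.92 ± 0.1), and glutamate decarboxylase (LOC_Os04g37460) was higher by 2.29 at under 1 FPKM, a call lost with a pseudocount of 0.5 or 1. Of 5 peptide transporters 3 were lower: LOC_Os06g49250 was the most abundant, at 46.3 to 50.4 FPKM in W517AZ and 123 to 135 FPKM in DZ129AZ (-1.41), while LOC_Os06g49240 and LOC_Os01g65130 were lower (-1.799 and -1.67). LOC_Os05g34030 and LOC_Os01g55610 were higher by 2.54 and 1.15. Both calls were lost with a pseudocount of 1, and the call of LOC_Os01g55610 was lost without DZ129AZ replicate 1 and without W517AZ replicate 2. That of LOC_Os06g49240 was lost with a pseudocount of 0.5 or 1.

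Of 8 tested metal and ion genes out of 12 listed, 3 were higher and 5 lower, and a pseudocount of 1 gave 1 and 2. The metal cation transporter LOC_Os07g12890 was at 12.04, 12.4 and 12.1 FPKM in W517AZ and 39.8, 40.1 and 40.1 FPKM in DZ129AZ (-1.71 ± 0.039, adjusted p = 3.6e-13). A heavy metal transport protein (LOC_Os09g09930) was lower (-1.52), a second metal cation transporter (LOC_Os01g74110) (-2.11), the potassium transporter LOC_Os03g37840 (-1.38) and a cation efflux gene (LOC_Os05g38670) (-1.34). Both nicotianamine synthase genes, whose product chelates iron and zinc, were higher (LOC_Os03g19420, 1.44, and LOC_Os07g48980, 1.06), and the call of LOC_Os07g48980 was lost without DZ129AZ replicate 1. A heavy metal-associated domain gene (LOC_Os09g20000) was higher by 1.68. The aquaporin TIP4-3 (LOC_Os01g13120), a water channel of the vacuole, was at 13.9, 12.8 and 11.1 FPKM in W517AZ and 1.08, 1.15 and 1.41 FPKM in DZ129AZ (3.27 ± 0.14, adjusted p = 9.6e-11).

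Cytochrome P450 genes are a large class of oxidases in hormone and defence metabolism. Of 13 tested out of 17 listed, 9 were higher and 4 lower, and the higher ones were 4 with a pseudocount of 1. Across the list of 1160 genes, 56.8% of the DEGs were higher. A cytochrome P450 51 gene (LOC_Os05g12040), of the family that demethylates sterols, was at 5.32, 5.46 and 4.96 FPKM in W517AZ and 0, 0.0313 and 0.0883 FPKM in DZ129AZ (5.304 ± 0.23, adjusted p = 1.7e-10). LOC_Os02g09310 and LOC_Os07g11970 were higher by 5.14 and 4.91. In the other direction, LOC_Os05g35010 was at 0.843, 0.782 and 0.502 FPKM in W517AZ and 17.2, 18.5 and 18.7 FPKM in DZ129AZ, 25.6-fold lower by the means (-4.52 ± 0.14), and LOC_Os01g43700 and LOC_Os01g12740 were lower (-1.67 and -1.13). Of the 4 glutathione S-transferases, which couple glutathione to toxic compounds, the 3 abundant ones were lower. LOC_Os07g28480 was at 11.1, 7.82 and 9.56 FPKM in W517AZ and 48.9, 50.9 and 50.5 FPKM in DZ129AZ (-2.403 ± 0.102), LOC_Os03g57200 and LOC_Os07g07320 were lower (-1.92 and -1.22), and LOC_Os01g27260 was higher by 2.49 at no more than 1.16 FPKM, a call lost with a pseudocount of 1.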

How the data were processed

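RNA of the AZ was sequenced as stranded mRNA libraries. According to the methods, the authors trimmed reads with Trimmomatic, mapped them to MSU-RGAP 7.0 with HISAT2, counted them with HTSeq and computed FPKM with Cufflinks. The deposited table holds these FPKM. As FPKM are not counts, log2(FPKM + 0.1) was tested with limma 3.58.1 (limma-trend, R 4.3.3) in 1 model of 4 groups over 12 libraries, two-sided, with Benjamini-Hochberg adjustment over 22977 genes. Whole reads, recovered from the FPKM for all 35851 genes within 0.002 reads, served for depth, for bounds against 3 reads per library (counting error only) and for voom. The pipeline was tested on simulated data.

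Product names came from the study's list. Lists of rice loci written from general knowledge were not used, because no source here names those loci. Families were built from the product names with values in view. Named genes are all tested members of families with up to 8, otherwise the 3 highest and 3 lowest DEGs and the most abundant member, the 6 highest and 6 lowest annotated genes and loci named by the study. Other loci in the product entries were added with their values known. Members and lists were chosen with earlier results of these data known. The alternatives tried were other pseudocounts (0.5, 1) and filters (none, 1 FPKM), median-ratio and quantile scaling, the AZ libraries alone, a replicate block, voom and leaving out each library. One tested gene is not reported here.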

Additional observations from a re-analysis of the deposited data

How the results depend on the processing

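The split of 2371 genes higher and 3636 lower in W517AZ ran from 1521 and 2688 with a pseudocount of 1 to 3328 and 4779 without the filter on low FPKM. The 1521 higher DEGs with a pseudocount of 1 were the only count of DEGs that moved by over 1.5 times. Leaving out each of the 6 libraries gave 2321 to 2393 higher and 3598 to 3657 lower DEGs. The replicate number as a block gave 2371 and 3635. Replicate numbers did not pair the libraries: the correlations of same-numbered deviations were -0.0375, -0.0439 and -0.00221. Limma voom on the recovered reads gave 2457 and 3719, of which 6002 were DEGs of the same direction in the main test. Of the 238 DEGs chosen by the naming rule or added to it, none changed direction, and 171 kept their call under every alternative in which they were tested, as 229 of the 264 named genes were at a minimum of 1 FPKM. The call was lost by 67 with a pseudocount of 1, by 22 with 0.5, by 14 after quantile normalization and by 13 without some 1 library. The cause was not tested. Signs changed in 6 of the 26 named genes that were no DEGs. On the log2 scale, actin LOC_Os01g71770 became 0.0372 after median-ratio scaling and 0.0677 after quantile normalization, and ran from -0.0444 to 0.024 without 1 library. After quantile normalization MADS51 LOC_Os01g69850 was at 0.0153, CSLC7 LOC_Os05g43530 at 0.038 and LOC_Os05g50640 at 0.0882. Without 1 library, PLD1 LOC_Os01g07760 ran from -0.0216 to 0.0203 and CYP714B1 LOC_Os07g48330 from -0.0192 to 0.0578. Counts of list members higher or lower moved by over 1.5 times in 36 cases with a pseudocount of 1, in 20 without the filter, in 17 at a minimum of 1 FPKM and in 8 after quantile normalization. Depth limits the genes near 0.5 FPKM, which rest on few reads.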

Other observations

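The product entries of the 1160 annotated genes also carry the locus numbers of 38 other genes in the table, mostly relatives, which are not in the readable part of that list and are described here with their values already known. Of these, 32 were tested, and 7 were higher in W517AZ, 3 lower and 22 no DEGs. The DEG share was 31.2%, beside 26.1% over all genes tested, and the median log2 fold change was 0.21. The relatives did not all go the way of the listed gene. PPDK2 (LOC_Os03g31750), a pyruvate, phosphate dikinase, was lower in W517AZ, at 11, 9.41 and 10.2 FPKM against 44.05, 41.3 and 45.7 FPKM in DZ129AZ (-2.09 ± 0.12 SE, adjusted p = 4e-09 by limma), where the listed dikinase gene was higher. HAK27 (LOC_Os03g37830), a potassium transporter, was at 7.41, 8.3 and 8.62 FPKM in W517AZ and 2.71, 2.83 and 2.22 FPKM in DZ129AZ (1.62 ± 0.1), where the listed potassium transporter next to it was lower. The difference within each pair was not tested.

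CYP71Z7 (LOC_Os02g36190) was higher by 1.22 and CYCB2-1 (LOC_Os04g47580), a B-type cyclin, by 1.63 at under 1 FPKM. LOC_Os10g35110, in the entry of the alpha-galactosidase, was lower, at 33.8, 31.8 and 30.2 FPKM against 66.4, 67.7 and 68.2 FPKM in DZ129AZ (-1.08 ± 0.045), and LOC_Os03g49350, in that of a lipoxygenase, was lower (-1.24). Several hormone relatives were no DEGs: RR23 (LOC_Os02g55320, 0.43), ILL7 (LOC_Os07g14590, -0.495), OPR1 (LOC_Os06g11290, 0.29) and CYP714B1 (LOC_Os07g48330, 0.01). MADS51 (LOC_Os01g69850) was at 74.5 to 80.8 FPKM in W517AZ and 78.9 to 82.2 FPKM in DZ129AZ. The trypsin inhibitor RBBI3.3 (LOC_Os01g03360) was at 134, 271 and 189 FPKM in DZ129AZ and 101, 98.9 and 89.9 FPKM in W517AZ (-0.98, no DEG).

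Genes of protein turnover were not described above. Of 20 tested F-box genes, the substrate-binding subunits of ubiquitin ligases, 12 were higher and 7 lower out of 25 listed. A pseudocount of 1 gave 5 and 3. The list of 1160 genes had 56.8% of its DEGs higher. OsFBX236 (LOC_Os07g27030) was at 1.06, 0.801 and 0.966 FPKM in W517AZ and 12.97, 13.04 and 13.5 FPKM in DZ129AZ (-3.68 ± 0.15, adjusted p = 7.9e-11 by limma). OsFBX315 (LOC_Os09g15570) and OsFBX274 (LOC_Os08g09740) were lower (-3.35 and -1.65). OsFBDUF15 (LOC_Os03g40370), OsFBX62 (LOC_Os02g54240) and OsFBL14 (LOC_Os04g30200) had no reads in DZ129AZ and were at least 10.8-, 10.7- and 11.8-fold higher. Of 10 tested proteases out of 14 listed, 7 were higher (2 with a pseudocount of 1) and 2 lower, among them the carboxypeptidases OsSCP13 (LOC_Os03g26930, 3.49) and OsSCP3 (LOC_Os01g22980, -2.28).

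Mobile element genes were the largest class, with 115 of the 514 family members, of which 36 passed the filter. Of these, 22 were higher and 14 lower in W517AZ. Of the 79 untested, 77 had the higher mean in W517AZ, as did most untested members of every group. The higher genes were 18 of retrotransposons and 4 of transposons, and these counts were 9 and 2 with a pseudocount of 1. A Pong transposon protein gene, LOC_Os09g06634, was at 0.371, 0.557 and 0.731 FPKM in W517AZ and 30.003, 28.9 and 29.1 FPKM in DZ129AZ (-5.53 ± 0.18, adjusted p = 8.6e-12 by limma). This was the lowest value of the tested listed genes with a specific product name. The retrotransposon genes LOC_Os01g16124 and LOC_Os01g16130, near one another on chromosome 1, were lower (-5.14 and -4.72), and LOC_Os08g41070 (-4.72). Reads of such genes can match many copies in the genome.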
